A study of Homo sapiens with 4 samples.

Results

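Gene-desert H3K27Ac peaks were the control peaks that lay more than 100 kb from every protein-coding gene body in MOLM13 cells. The rule took peaks on the autosomes except chromosome 8 and measured the distance to RefSeq protein-coding genes on GRCh38.p14, the build of hg38. It chose 18665 peaks, which were 8.61% of the 216710 control peaks on these 21 autosomes and 7.59% of all 245875 control peaks. The rule used position only and no measured level.

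MOLM13 is an established human AML cell line with a rearrangement of the MLL1 gene (MLL1-r). H3K27Ac was profiled by ChIPmentation, in which Tn5 transposase adds sequencing adapters to immunoprecipitated chromatin, in 1 control library and 1 library of cells exposed for 16 h to SNDX-50469 at 500 nM. SNDX-50469 is a Menin inhibitor (MI), a small molecule that blocks the binding of Menin to MLL1 and its fusion proteins. The treatment text of the labels names DMSO beside SNDX-50469, while the control library itself is marked as having no treatment. Both arms are the same cell line in culture, 2 input libraries were not analysed here, and no replicate exists, so no test between conditions was possible.

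Acetylation of lysine 27 on histone H3 is laid down by the acetyltransferases CBP and p300 and marks active promoters and enhancers. Enhancers can act on genes over long distances, and stretches without coding genes next to regulators of development often carry several of them. Long noncoding RNA (lncRNA) genes are common in such stretches, and many of their transcripts start at or beside enhancers.

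Among the gene-desert peaks, those over the start of a lncRNA gene can be shown with their sequence. The 4 RefSeq windows below, of 300 bases each on GRCh38.p14, lie around annotated starts within the clusters of peaks described further on, and were chosen after their values were seen. They are printed 5′ to 3′ on the strand of the gene, and capitals mark matches, on either strand, to short motifs of transcription factor families active in blood cells. ETS factors of the PU.1 type were represented by the motif GAGGAA. For RUNX factors the motif was TGTGGT, and for CEBP factors, with N for any base, it was TTGCNNAA. For the AP-1 family the motif searched was TGANTCA. For GATA factors the letters were AGATAA, and for MEIS factors the motif in use was TGACAG. The BALR6 window (chr3:17962302-17962601, plus strand) and the LOC101928354 window (chr6:14717440-14717739, minus strand) lay under a peak in both lists. Other windows of LOC101928354, at chr6:14651503-14651802 and chr6:14635335-14635634, lay under a control peak only and are not printed. The FILNC1 window (chr6:139854600-139854899, plus strand) also lay under a control peak only and is not printed. None of these unprinted windows held a match to any of the motifs. The LOC102724463 window (chr6:14658901-14659200, plus strand) and the CASC20 window (chr20:6426482-6426781, plus strand) lay under a control peak only.
BALR6: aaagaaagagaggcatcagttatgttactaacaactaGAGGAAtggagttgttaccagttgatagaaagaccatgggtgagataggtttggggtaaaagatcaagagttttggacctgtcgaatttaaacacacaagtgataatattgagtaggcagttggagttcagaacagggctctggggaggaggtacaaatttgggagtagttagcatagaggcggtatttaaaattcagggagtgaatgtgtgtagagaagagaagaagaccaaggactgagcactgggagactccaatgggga
LOC101928354: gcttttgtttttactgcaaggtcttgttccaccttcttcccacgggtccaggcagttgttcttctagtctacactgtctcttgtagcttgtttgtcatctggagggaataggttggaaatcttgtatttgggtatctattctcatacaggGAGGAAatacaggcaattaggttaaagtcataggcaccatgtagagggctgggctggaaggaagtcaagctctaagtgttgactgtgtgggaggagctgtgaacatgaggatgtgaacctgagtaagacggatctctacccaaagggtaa
LOC102724463: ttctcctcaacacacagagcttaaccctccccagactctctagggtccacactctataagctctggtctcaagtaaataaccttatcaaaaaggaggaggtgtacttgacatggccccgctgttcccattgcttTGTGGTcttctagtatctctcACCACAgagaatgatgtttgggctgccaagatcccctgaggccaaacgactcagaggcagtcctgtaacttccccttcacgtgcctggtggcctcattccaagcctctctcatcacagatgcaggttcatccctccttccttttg
CASC20: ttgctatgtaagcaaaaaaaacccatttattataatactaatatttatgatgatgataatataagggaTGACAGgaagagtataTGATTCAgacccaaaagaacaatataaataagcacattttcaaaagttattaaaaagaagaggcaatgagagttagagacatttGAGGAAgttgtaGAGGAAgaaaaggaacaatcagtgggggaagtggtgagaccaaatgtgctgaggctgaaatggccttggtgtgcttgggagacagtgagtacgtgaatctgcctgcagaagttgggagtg

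All 300 bases of the BALR6 window were covered in both conditions, and 196 of the 300 bases of the LOC101928354 window were covered after SNDX-50469. Each of these windows held 1 GAGGAA match. The LOC102724463 window held 2 RUNX motifs and none of the other motifs, and the CASC20 window held 2 GAGGAA matches, 1 AP-1 match and 1 MEIS match. A match is a run of letters and does not show that a factor was bound.

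The deposited lists held 245875 peaks in the control library and 54061 after SNDX-50469. The files give no read totals, so the depth of the libraries is unknown, and the lists did not reach down to the same strength. The weakest control peak had a −log10 p of 2.68 and the weakest SNDX-50469 peak 3.93. The number of peaks and the share kept therefore cannot be told apart from a difference in depth or calling cutoff. As a check of the cell line, 10 of 10 myeloid genes, SPI1, CEBPA and FLT3 among them, had a control peak in the gene body or within 5 kb. Among genes of other lineages, CD3E and CD79A had a control peak, and HBB, EPCAM and ALB had none.

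The gene desert was sparsely marked. It made up 850.3 Mb in 1426 stretches and held 22.0 control peaks per Mb, counted by the middle of each peak. Near intergenic sequence, 5 to 100 kb from a gene, held 78.8 peaks per Mb, and genic sequence, within 5 kb of a gene body, held 118. Control peaks covered 2.1% of the desert, against 7.41% of near intergenic and 10.6% of genic sequence. SNDX-50469 peaks covered 0.177%, 0.589% and 1.14%. Assembly gaps and centromeres were not removed from these lengths.

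Desert peaks were unevenly spread over the stretches. At least 1 control peak lay in 889 stretches and none in 537, and 96 stretches held 50% of the peaks. A kept peak, that is, a control peak sharing at least 1 bp with a SNDX-50469 peak, lay in 259 stretches. The median distance of a desert peak to a protein-coding gene was 215 kb and the largest 3721 kb.

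In width, desert peaks resembled peaks elsewhere. Their median width was 328 bp, with quartiles of 154 and 747 bp and a maximum of 60710 bp. Near intergenic peaks had a median width of 342 bp and genic peaks one of 341 bp. The fold over background, averaged over each peak by the authors, had a median of 2.93 in the desert, 2.97 near genes and 2.95 in genic sequence. Fewer desert peaks were strong. The desert supplied 5.45% of the 10% of control peaks with the highest −log10 p, below its 8.61% of all peaks on these chromosomes. A −log10 q of 5 or higher was reached by 1.68% of desert peaks, 2.72% of near intergenic peaks and 4.58% of genic peaks.

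Most desert peaks were short, but most of the acetylated length lay in wide peaks. Peaks under 250 bp were 39.2% of desert peaks and 5.83% of their 17.3 Mb of covered length. The 639 peaks of 5000 bp or more were 3.42% of the peaks and 37.0% of the length. The corresponding share of length was 31.2% for near intergenic and 33.2% for genic peaks.

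**Figure D1:**
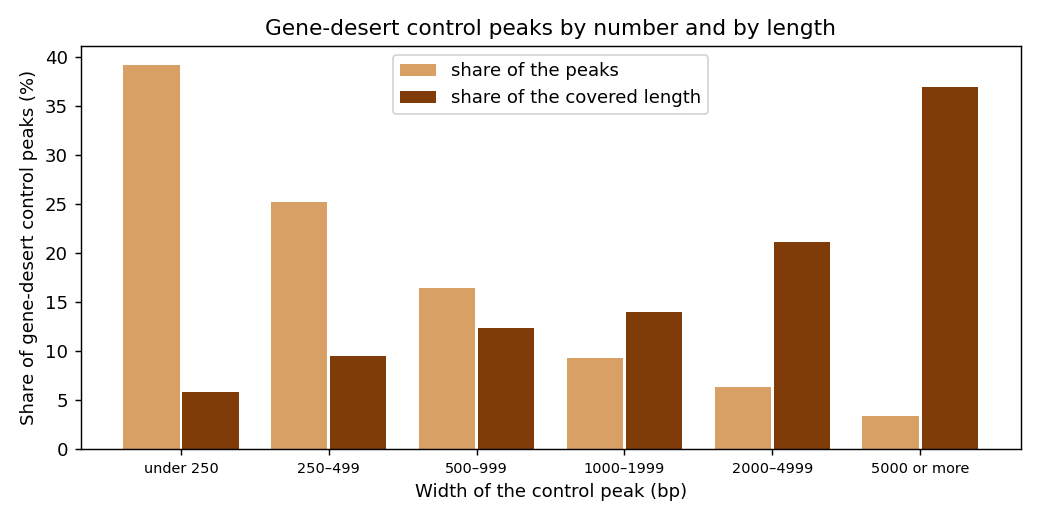
Gene-desert control peaks in 6 classes of width in bp (horizontal axis), as percent of the 18665 peaks (light bars) and percent of their covered length (dark bars). The shares of peaks fall from 39.2% in the narrowest class to 3.42% in the widest, while the shares of length rise from 5.83% to 37.0%.

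Few desert peaks were also called after SNDX-50469. Of the 18665 desert peaks, 738 were kept, or 3.95% (Wilson 95% interval 3.68 to 4.24), where 6.28% of all control peaks on these chromosomes were kept. The kept share was 4.59% (4.40 to 4.78) of near intergenic peaks and 7.10% (6.97 to 7.23) of genic peaks. The kept share changed with the cutoff of the control list. When the control list was limited to peaks at least as strong as the weakest SNDX-50469 peak, 17.9% of the remaining desert peaks were kept. The other control peaks of all widths had 26.9%. Among the remaining desert peaks of 1 kb or more 28.4% were kept, with no value for other peaks of that width. The Wilson intervals reflect counting alone, and since adjacent peaks depend on each other they are narrower than the true error. By length, 0.984 Mb of the desert peaks was covered in both lists, or 5.68%, compared with 5.71% of near intergenic and 9.75% of genic peak length.

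Among desert peaks of 1 kb or more, 570 of 3571 were kept, or 16.0% (14.8 to 17.2), against a background of 25.8% for all control peaks of that width. Near intergenic peaks of 1 kb or more were kept in 18.2% (17.4 to 19) and genic peaks in 29.2% (28.7 to 29.7). The kept share of desert peaks rose with width, from 0.738% (0.566 to 0.962) under 250 bp to 4.88% (3.97 to 6) from 1 kb to below 2 kb and 49.5% (45.6 to 53.3) at 5000 bp or more. A wider peak also has more positions at which it can meet another peak. Under 250 bp the interval of the desert peaks held the genic value, 0.758%. From 500 bp upward the desert interval lay wholly below the genic value, with 14.2% (12.3 to 16.3) against 35.1% from 2 kb to below 5 kb. Near intergenic peaks lay between, at 18.6% in that class and 58.1% at 5000 bp or more.

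**Figure D2:**
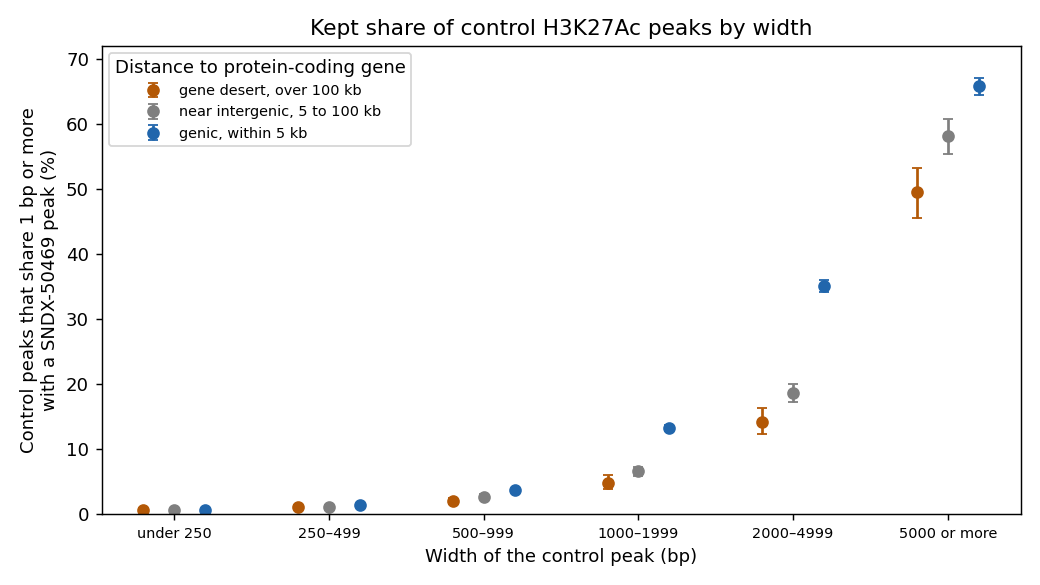
Percent of control peaks that share 1 bp or more with a SNDX-50469 peak (vertical axis) by width class in bp (horizontal axis), for gene-desert, near intergenic and genic peaks. Points are shares and bars are Wilson 95% intervals. In the 3 widest classes the desert peaks are lowest and the genic peaks highest, with 49.5%, 58.1% and 65.8% at 5000 bp or more.

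The strength of the peaks moved with this difference. In the class of 5000 bp or more the median fold was 4.39 for desert, 4.82 for near intergenic and 5.04 for genic peaks. When all other peaks were weighted to the width classes of the desert peaks, their kept share was 6.48% (6.39 to 6.57). Weighted instead to 17 groups of −log10 p, it was 4.31% (4.23 to 4.38), and weighted to both, 4.72% (4.64 to 4.79). The desert value of 3.95% was below all of these. Near intergenic peaks alone had 4.80% (4.63 to 4.97) weighted to width, 3.59% (3.45 to 3.73) to strength and 4.09% (3.94 to 4.25) to both. The desert value was thus above the near intergenic one weighted to strength, and inside its interval weighted to both. At 1 kb or more, the other peaks had 17.9% weighted to strength and 19.1% weighted to both, beside 16.0% in the desert. Near intergenic peaks of that width had 15.0% (14.4 to 15.6) and 16.5% (15.9 to 17.2). Weighting to strength was added after the data were seen.

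The strongest desert peaks were kept more often. Of the 314 with a −log10 q of 5 or higher in control, 220 were kept, or 70.1% (64.8 to 74.9), compared with 63.9% (61.3 to 66.5) of near intergenic and 79.4% (78.4 to 80.3) of genic peaks of that strength. These desert peaks had a median width of 8830 bp, near intergenic ones 5023 bp and genic ones 3519 bp. Where a wide desert peak was kept, little of it was covered. Across the 316 kept desert peaks of 5000 bp or more, the median covered share was 12.2%, with quartiles of 4.65 and 29.3%, and 16 peaks were covered over at least 50% of their width. The corresponding median was 12.8% for near intergenic and 17.9% for genic peaks. The middle 50% of the width of these desert peaks held 66% of the covered bases, and the genic value was 63.9%.

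Distance beyond the limit went with a lower kept share. It was 4.5% (4.08 to 4.96) at 100 to 200 kb from a gene, 3.81% (3.39 to 4.28) at 200 to 500 kb, 3.13% (2.46 to 3.97) at 500 to 1000 kb and 1.97% (1.27 to 3.06) farther out. The interval of the nearest class did not meet those of the farthest 2 classes, whereas neighbouring classes overlapped. The median width fell alongside, from 336 to 308 bp. At the limit itself there was no step, with 4.08% kept at 80 to 100 kb and 3.72% at 100 to 120 kb.

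The 10 widest desert peaks were all kept, and 6 of them were on chromosome 6. Chromosome 6 held 2311 of the 18665 desert peaks and 537 of the 3571 of 1 kb or more. Of all desert peaks of 5000 bp or more, 49.5% were kept, and a wider peak has more positions at which it can meet another. The widest, chr6:43895165-43955874, spanned 60.7 kb between VEGFA, the vascular growth factor gene, and MRPL14, and overlapped the lncRNA genes LOC105375070 and LINC01512. It had a fold of 11 in control, and 27 SNDX-50469 peaks covered 41.8% of it. The next, chr3:17952630-17999644, spanned 47.0 kb over BALR6, and 8 peaks covered 55.6% of it. The most covered of the 10 was chr6:14900763-14938229, 37.5 kb wide over LOC105374945, where 9 peaks covered 62.5%.

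The others among the 10 were also covered in part. The peak chr2:8510454-8552947 lay 129 kb from ID2, an inhibitor of basic helix-loop-helix factors, and was covered over 35.1%. The peak chr1:234860944-234902199 lay 207 kb from TOMM20 and 251 kb from IRF2BP2, a transcriptional corepressor gene, and was covered over 21.3%. At chr6:15884050-15924142, between DTNBP1 and MYLIP, 35.5% was covered. At chr6:139621118-139657585, 246 kb from CITED2, which encodes a CBP/p300-binding regulator, 22.6% was covered. Further peaks beside JARID2, at chr6:15056365-15091544 and chr6:14858634-14891796, were covered over 22.1 and 12.2%, and chr5:165183024-165215023, 1660 kb from MAT2B, over 24.3%. Flanking genes are given for position only.

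The 5 widest desert peaks that shared no position with the SNDX-50469 list were 18.0 to 21.6 kb wide. The widest was chr11:129603322-129624899, between BARX2 and TMEM45B over LINC01395, with a fold of 5.83. The next, chr3:18022443-18041739, lay in BALR6 beside the 47.0 kb peak that was kept, with a fold of 3.58. The others were chr5:143656756-143675497 between NR3C1, the glucocorticoid receptor gene, and HMHB1, chr7:41818095-41836604 between INHBA and GLI3, and chr21:25168700-25186715, 399 kb from MRPL39. Their folds ran from 3.58 to 5.83, and those of the 10 widest peaks from 5.18 to 11.

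The 3 peaks farthest from a protein-coding gene were short. The farthest, chr1:125183700-125184022, was 323 bp wide, 3720 kb away and had a fold of 11. It was covered over its whole width after SNDX-50469. The others, chr22:12601817-12601937 and chr4:33511593-33511907, had folds of 3.89 and 3.04 and were not kept. Short peaks of very high fold formed a small set of their own. Only 4 desert peaks of 500 bp or less had a fold of at least 10, and all 4 were covered over at least 93.1% of their width in the SNDX-50469 list. They were the farthest peak, chr3:93470365-93470791 with a fold of 31.5, chr21:8219925-8220184 with 14 and chr16:46390375-46390820 with 10.5. These peaks were singled out after their values were seen. No peak was removed for lying in repeats or near a centromere, and whether these 4 peaks reflect acetylation was not tested.

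Desert peaks mostly stood close together. Only desert peaks were used for clusters, so a cluster that reaches the 100 kb limit may go on in peaks closer to a gene. Peaks with gaps of at most 12500 bp were joined into 3162 clusters. Among them, 1348 consisted of 1 peak, 123 bp wide in the median, and 1.04% (0.620 to 1.74) of them were kept. The other 1814 clusters held 17317 peaks, 92.8% of the total, and 4.18% (3.89 to 4.49) of these peaks were kept, beside the background of 6.28%. At equal width the contrast could not be judged, since only 13 single peaks reached 1 kb, 2 of them kept. The 48 clusters of 50 or more peaks held 22.9% of the peaks and 33.5% of the covered length, and 45 of them had a kept peak. Of all clusters, 10.2% had a kept peak, and a cluster with more peaks has more chances to hold one. The share of peaks kept was 1.66% in clusters of 2 to 4 peaks, 3.01% in those of 5 to 19, 4.93% in those of 20 to 49 and 6.80% in those of 50 or more. Width and strength were not held equal across these classes, and their part in the rise was not tested.

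The 5 clusters with the longest covered length kept between 2.43 and 14.8% of that length. The first, chr6:14239215-15144317, lay between CD83, a surface marker of activated dendritic cells, and JARID2, a partner of Polycomb repressive complex 2. Both its ends lay 102 kb from these genes, close to the limit of the rule. The 318 peaks of this cluster covered 620 kb of 905 kb, and 9 lncRNA genes were overlapped. In the SNDX-50469 list 134 peaks fell there, 13 of them outside any control peak, and 13% of the control length stayed covered.

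The second, chr6:139483913-139998509, began 109 kb from CITED2, and 199 peaks covered 356 kb. Of this length 6.21% stayed covered, by 47 peaks. The third, chr3:17880001-18242276, lay between TBC1D5 and SATB1, which encodes a chromatin organizer of lymphoid cells. Here 86 peaks covered 285 kb, and 14.8% stayed covered, the highest of the 5.

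The fourth, chr2:59646487-60153703, ended 297 kb from BCL11A, a repressor of fetal globin that also acts in lymphoid and dendritic cells. Its 206 peaks covered 279 kb and overlapped no lncRNA gene. The 23.3 kb that stayed covered, or 8.34%, came from 11 SNDX-50469 peaks, most of it near the BCL11A end of the cluster. The fifth, chr20:6258798-6663412, lay between FERMT1 and BMP2, a secreted growth factor gene, and its 154 peaks covered 271 kb. Only 2.43% of that length stayed covered, by 20 peaks.

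**Figure D3:**
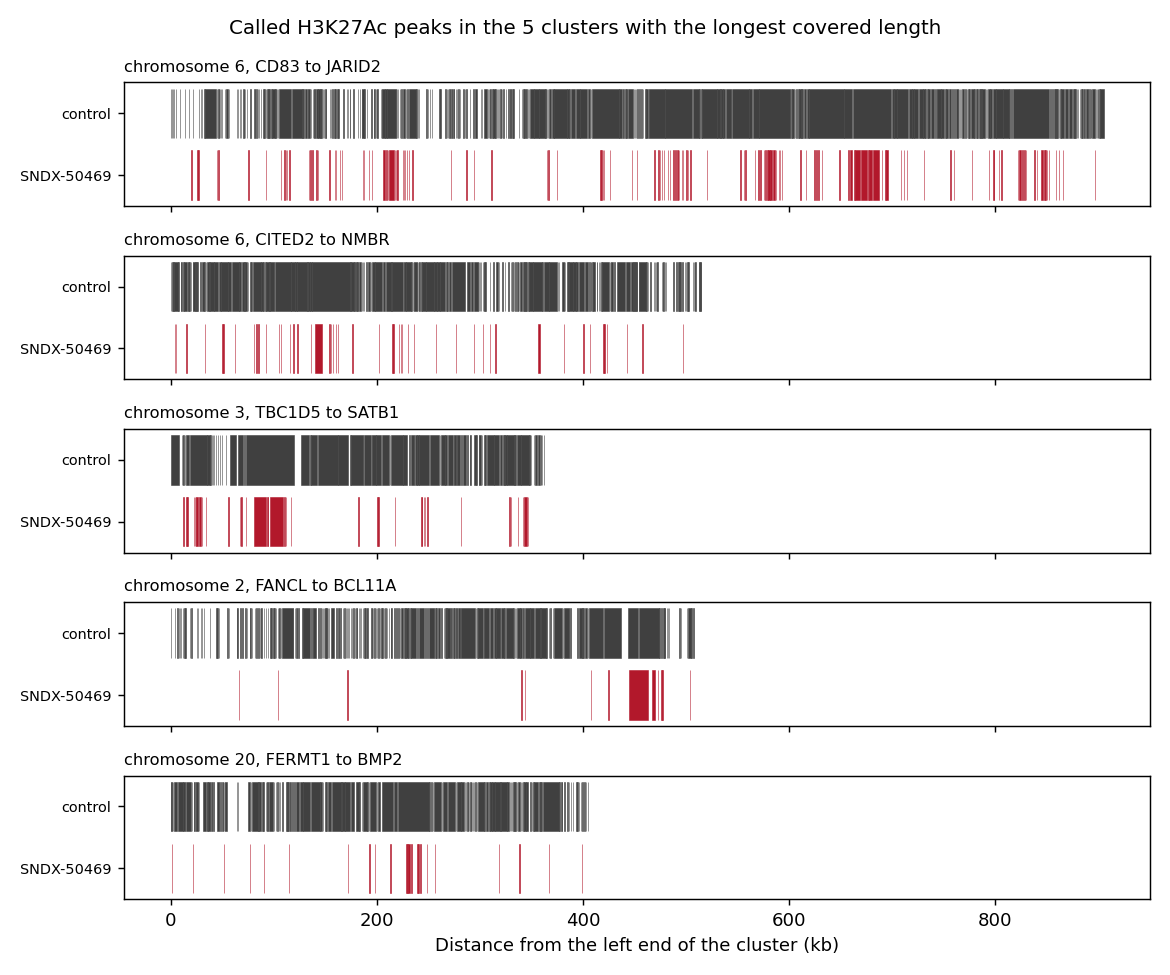
Called H3K27Ac peaks in the 5 clusters of gene-desert peaks with the longest covered length, as distance in kb from the left end of each cluster, with control peaks in grey above and SNDX-50469 peaks in red below. Outlines have a fixed thin line, so the narrowest peaks look slightly wider than they are. Control peaks fill 55.0 to 78.7% of each span, while SNDX-50469 peaks overlap 2.43 to 14.8% of the control length, with their densest groups in the first chromosome 6 cluster and in the chromosome 2 and chromosome 3 clusters.

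Over the 12 clusters with the longest covered length, 10.6% of the length stayed covered, against 5.68% over all desert peaks, and 4 of the 12 were on chromosome 6. They differed widely among themselves, and the next 2 named were singled out as the extremes after their values were seen. In the cluster chr1:234820603-235005451, between IRF2BP2 and TOMM20, 16 peaks covered 179 kb and 33.7% of it stayed covered. In chr21:35151087-35672954, beside RUNX1, a master regulator of blood formation, 178 peaks covered 260 kb and 1.15% stayed covered.

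Chromosomes differed both in density and in the kept share. Desert peaks ranged from 8.03 per Mb on chromosome 18 to 59.7 per Mb on chromosome 20, with 45.4 on chromosome 6. Chromosome 6 had the highest kept share, 8.96% (7.86 to 10.2) of 2311 peaks, and the other chromosomes ranged from 1.59% of 251 peaks on chromosome 17 to 5.02% of 1015 on chromosome 20. The share was lower in the desert than for the other control peaks on 21 of 21 chromosomes, with the desert interval wholly below the other value on 16. On chromosome 6 the values were 8.96 and 9.17%. These shares by chromosome were not weighted to width or strength, and near intergenic peaks were not set apart from genic ones.

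Chromosomes 5, 6 and 13 held the most desert peaks of the SNDX-50469 list, and the results were repeated without them. The desert kept share was then 3.06%, where the other peaks had 6.18%. Among peaks of 1 kb or more it was 13.3%.

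**Figure D4:**
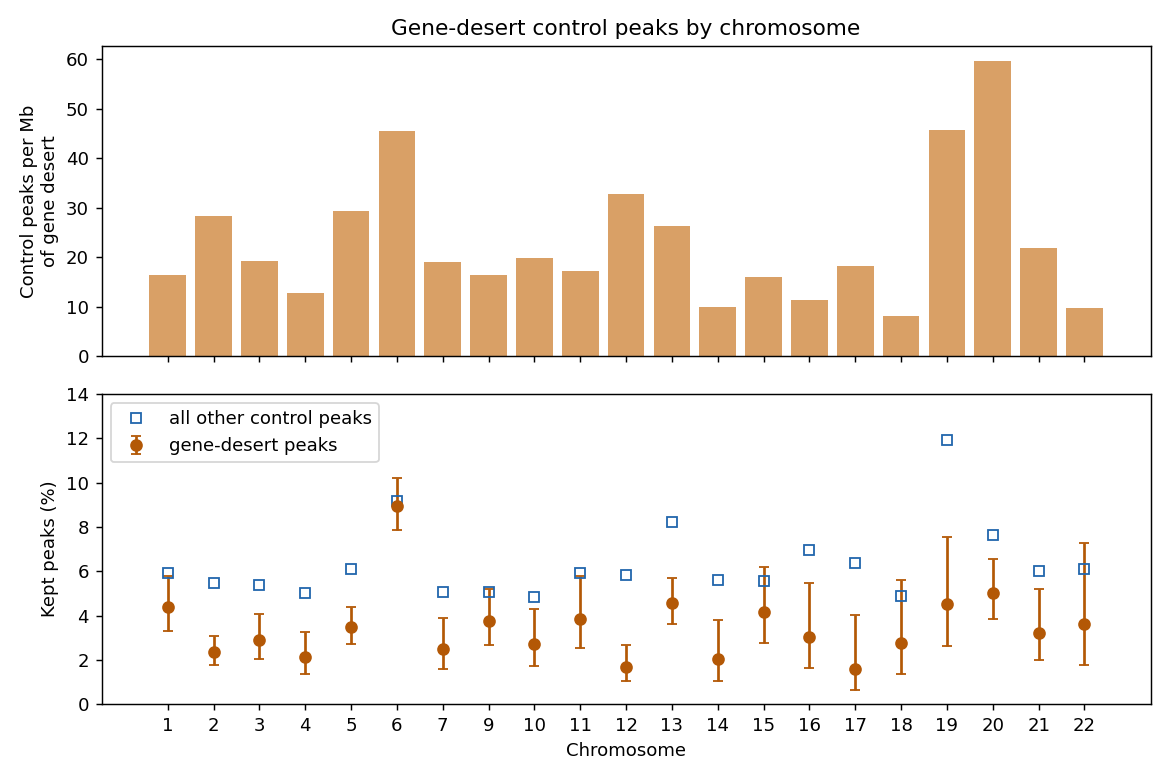
Control H3K27Ac peaks per Mb of gene desert (upper panel) and percent of them kept (lower panel, filled points with Wilson 95% intervals) by chromosome, with the kept share of all other control peaks as open squares. Chromosome 6 stands highest among the desert kept shares at 8.96%, and each desert point lies below its open square.

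The SNDX-50469 list had 3462 peaks of its own in the desert, with a median of 196 bp in width. No position was shared with a control peak by 2055 of them, or 59.4% (57.7 to 61.0), against 29.5% of the 27649 peaks elsewhere on these chromosomes. The peaks elsewhere were wider, at 308 bp in the median. Control peaks also covered more of the sequence there, and the part of width and cover in this difference was not tested. The desert peaks found only after treatment were short, at 149 bp in the median, and 1 reached 1 kb. Their median fold was 3.53, and 1 of them had a −log10 q of at least 5. On chromosomes 5, 6 and 13 they were 426 of 534, 587 of 1025 and 337 of 450 desert peaks. Without these chromosomes the share was 48.5% (46.0 to 51.1), with no such value for the peaks elsewhere.

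Desert peaks overlapped 1050 of the 16908 RefSeq lncRNA genes on these chromosomes, out of 4255 with sequence in the desert, and 682 of the 1050 carry only a LOC number. Peaks of 1 kb or more reached 498 of the genes. In 164 genes, 15.6%, some position was covered in both lists. Over the peaks, 6233 or 33.4% overlapped a lncRNA gene body, and these gene bodies made up 21.1% of the desert length. Desert peaks over a lncRNA gene were kept in 4.28% (3.81 to 4.82), and those outside in 3.79% (3.47 to 4.14), so the intervals overlapped. Both were below the background of 6.28%.

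The lncRNA gene with the longest covered length was BALR6, described in acute lymphoblastic leukemia, where 66 desert peaks covered 229 kb, or 74.7% of the gene. Of this length 14.2% stayed covered after SNDX-50469. LOC100506403, beside RUNX1, had 157 kb covered and kept 1.60%. LOC105374945, in the chromosome 6 cluster beside JARID2, had 134 kb covered and kept 23.8%, the highest of the 10 longest.

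LOC105376387 on chromosome 10 had 134 kb covered and kept 8.26%. DLEU1, in the interval deleted in chronic lymphocytic leukemia, had 132 kb covered by 147 peaks and kept 4.37%. LOC101928354 kept 4.40% of 109 kb and CASC20 5.76% of 86.0 kb. MIR3667HG, LOC105372529 and LINC02698 had 71.6 to 82.9 kb covered and kept 2.64 to 4.2%.

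**Figure D5:**
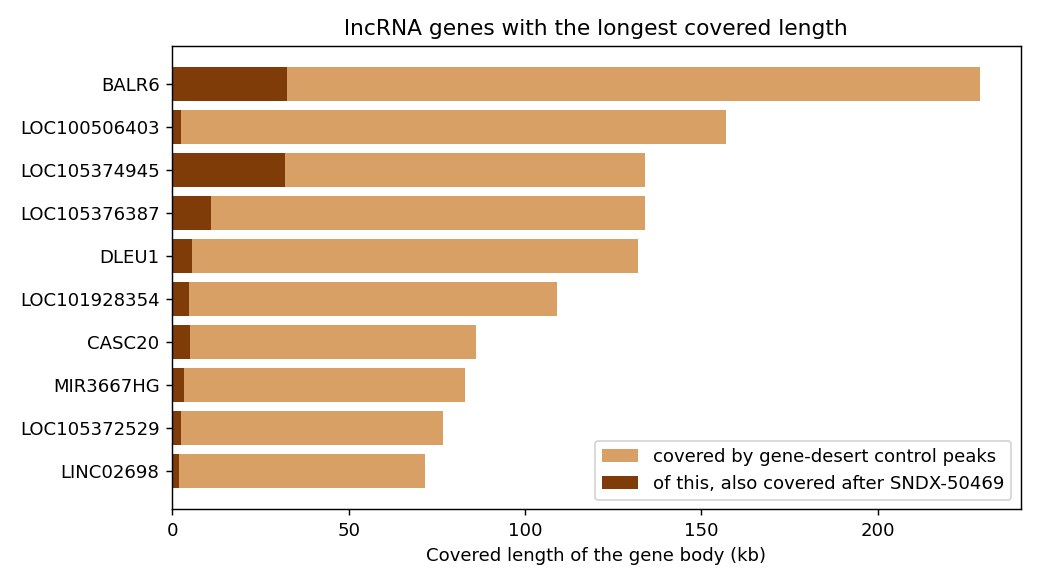
Length in kb of the 10 lncRNA genes with the longest length covered by gene-desert control peaks (light bars) and the part of that length also covered after SNDX-50469 (dark bars). BALR6 and LOC105374945 keep the longest parts, 32.5 and 31.9 kb, and LOC100506403 keeps 2.52 of 157 kb.

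Of 22 lncRNA genes studied in blood cells or hosting microRNAs, 8 had any sequence in the desert and so could be overlapped at all. Desert peaks overlapped 6 of these 8, beside 24.6% of all lncRNA genes with sequence in the desert. These 6 genes are 129 to 561 kb long, and a longer gene has more positions that a peak can touch. Gene length was not taken into account in this comparison. MORRBID was not matched. CASC15 had 85 desert peaks over 64.2 kb and kept 8.71% of the length. LINC-PINT, induced by p53, had 57.1 kb covered and kept 5.95%, and MIR181A1HG, the host of miR-181 genes, had 24.0 kb covered and kept 8.10%. MIR100HG had 8.02 kb covered and none kept. MIR99AHG and MIR4435-2HG were touched by 1 peak each, of 85 and 78 covered bases, and neither was kept.

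At the starts of lncRNA genes, desert peaks covered 219 of 2851 desert windows of 300 bases, from 197 genes. Of these windows, 35 also lay under a SNDX-50469 peak, or 16.0% (11.7 to 21.4), where 41.1% of all promoter windows under a control peak did. The desert peaks that held such a window numbered 188 and had a median width of 2090 bp, with 30.3% (24.2 to 37.2) kept. Peaks without a window, weighted to the same width classes, were kept in 19.1%. At 1 kb or more the kept shares were 44.8% (36.4 to 53.5) with a window and 14.9% (13.8 to 16.1) without, beside the background of 25.8%. The shares at 1 kb or more were not weighted to width, and none of these shares was weighted to strength.

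The marked windows also differed in sequence from unmarked ones. Their median GC content was 47.7%, against 42.0% in the 2620 desert windows under no control peak. The GAGGAA motif was present in 77 of the 219 windows, or 35.2% (29.1 to 41.7), compared with 27% (25.4 to 28.8) of the unmarked desert windows and 27.9% of all 33558 promoter windows. It was present in 17 of the 35 windows also under a SNDX-50469 peak, or 48.6% (33.0 to 64.4). The GATA motif went the other way, at 16.0% (11.7 to 21.4) of marked and 21.8% (20.3 to 23.4) of unmarked desert windows.

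For the other 4 motifs the interval of the marked windows held the value of the unmarked ones. RUNX was at 21.5% and 18.1%, CEBP at 17.8% and 18.3%, AP-1 at 13.7% and 13.4%, and MEIS at 17.4% and 19.8%. Base composition differed between these sets, and its part in the motif shares was not tested. Some genes have several windows, so the windows are not independent.

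Of the 111 microRNA hairpins in the desert, 4 lay under desert peaks, or 3.6%, where control peaks covered 2.1% of the desert length. The mature sequences of 2 of them are printed from RefSeq, because their peaks were the widest, with the seed (bases 2 to 8) in capitals.
hsa-miR-4437: uGGGCUCAggguacaaagguu
hsa-miR-4280: gAGUGUAGuucugagcagagc
The MIR4437 hairpin, chr2:181305593-181305652 on the minus strand, lay in a desert peak of 11363 bp with a fold of 6.38, and all its 60 bases were covered after SNDX-50469 too. The MIR4280 hairpin, chr5:87114879-87114954 on the minus strand, lay in a peak of 23927 bp with a fold of 6.99. That peak was kept, but no SNDX-50469 peak reached the hairpin. MIR5087 and MIR5197 lay under desert peaks of 1012 and 1144 bp, and neither hairpin was covered after treatment.

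Not every desert peak was far from all genes. The annotation does not count antigen receptor segments as protein-coding genes, and 13 desert peaks overlapped such a segment and 73 lay within 100 kb of a segment. Of these 73 peaks, 4 were kept.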

How the data were processed

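H3K27Ac ChIPmentation was analysed in 1 control and 1 SNDX-50469 library of MOLM13 cells. The submitters' processing notes name Trim Galore 0.6.5, Bowtie2 2.3.4.2, Picard 2.9.0, MACS2 2.1.2 and GRCh38, while the study's supplementary methods name TopHat2 and hg38. Calling options and the use of an input are not given in the sources used here. For each library the authors deposited a separate list of broad peaks, with a fold ratio over background, a −log10 p and a −log10 q for each peak. The deposited score is 10 times the −log10 q without decimals and was not used. These values are relative to each library's own background, so only positions were compared between lists, apart from the alternatives that set a common cutoff.

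Distances were measured to 18408 protein-coding genes of RefSeq (GRCh38.p14) on 21 autosomes with Python 3.11.15, numpy 2.4.6, pandas 2.3.3 and scipy 1.17.1. The interval functions were tested on simulated data. Kept control peaks were those with an overlap of 1 bp or more in the SNDX-50469 list. With 1 library per condition no p-value was computed, and Wilson 95% intervals cover counting error only. The members, gene lists and motifs were chosen with earlier results of these data known. The regions named were the 10 widest peaks, the 5 clusters with the longest covered length, the 5 widest peaks kept and not kept, and the 3 farthest peaks. The lncRNA genes named were the 10 with the longest covered length and a list of 22. Sequences came from RefSeq tables of GRCh38.p14. The centres of peaks were not printed, since no genome of this build was used, and motifs were searched in promoter windows instead. Some genes of the lineage check are not reported here.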

Additional observations from a re-analysis of the deposited data

How the results depend on the processing

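Of 64 alternative values, 12 stayed the same and 52 moved. A count or density stayed the same when it was within 1.5 times the main value. A share or median width stayed the same when it was within the interval of the main value, a Wilson interval for the unweighted shares. With a distance of over 50 kb there were 29232 peaks with a median width of 335 bp, 1652 lncRNA genes were overlapped and the width-weighted share of the other peaks was 6.75%. With over 200 kb there were 10127 peaks, 1891 clusters, 568 lncRNA genes and 1965 SNDX-50469 peaks, the median width was 320 bp, the kept share 3.50%, that of peaks of 1 kb or more 14.5% and the weighted share of the others 6.24%. With lncRNA genes also setting the distance, 2933 peaks remained and 3% were kept.

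With a −log10 q of at least 2 in both lists, 4171 control and 668 SNDX-50469 desert peaks gave 1464 clusters, 532 lncRNA genes, 4.95 peaks per Mb and a median width of 1161 bp. The kept share was then 6.33%, that of peaks of 1 kb or more 11.3%, and the weighted share of the others 12.7%. With at least 5, these values were 314, 33, 232, 133, 0.386 per Mb, 8830 bp, 9.24%, 7.56% and 12.2%. With the control list cut at the weakest −log10 p found after SNDX-50469, the kept share was 17.9% and that of peaks of 1 kb or more 28.4%. Over all widths, that of the other peaks was 26.9% and the weighted share 28.7%.

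When SNDX-50469 peaks had to cover at least 20% of a control peak, these 4 shares were 1.68, 5.04, 3.68 and 3.64%, and at 50% they were 0.573, 0.868, 1.42 and 1.40%. The share kept among wide peaks was 9.51% from 500 bp and 26.5% from 2 kb. The alternatives without chromosomes 5, 6 and 13 and with weighting to strength were chosen after seeing the data. Without those chromosomes, 3.06% of desert peaks, 13.3% of those of 1 kb or more and 6.18% of the other peaks were kept, and 1453 SNDX-50469 peaks lay in the desert. The share of the other peaks weighted to −log10 p was 4.31%, and to width and −log10 p 4.72%. The cause of these shifts was not tested, apart from the smaller lists that stricter cutoffs leave. In each of these settings the desert kept share was below that of the other peaks, where both were computed. At a −log10 q of at least 5, the desert interval of 6.51 to 12.95% held the weighted share of the others, 12.2%. Near intergenic peaks alone, weighted to strength, had 3.59% kept, below the desert value of 3.95%. No paired analysis was possible because there was only 1 library per condition. Leaving out a replicate was not possible for the same reason, and the unknown depth limits every share.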
